A study of Mus musculus with 6 samples.

Results

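The genes described here are 35 cell cycle and DNA replication genes, taken by their symbols from the table of mRNA counts. They run from the D-type cyclins that start the cycle, over the replicative helicase and the enzymes of nucleotide supply, to the kinases, kinetochore proteins and motors of mitosis. All 35 were found among the 17385 genes of the table, all of which are annotated as protein-coding, and 34 passed the filter on low counts and were tested. Aurkb, the kinase aurora B, stayed under the filter and is given by its counts alone. RNA of the hippocampus had been sequenced at an age of 3 months, in 3 5xFAD libraries and 3 wild-type (WT) libraries, and the question was which hippocampal mRNAs differ at this early age. 5xFAD mice carry human APP with the Swedish, Florida and London mutations of familial Alzheimer's disease under the mouse Thy1 promoter, which is active mainly in neurons, and they form amyloid plaques. The line was made on a C57BL/6J background. The WT mice were littermates without the transgenes. Per the study's methods the animals were perfused, though red blood cell markers differed between the groups, as given below. The tissue was not sorted, so that each library holds RNA of all its cell types. In such bulk tissue, more cells of a type and more RNA per cell cannot be told apart.

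A dividing cell passes from G1 into S phase when cyclin D and cyclin E kinases inactivate the retinoblastoma protein and release E2F factors, which switch on the genes of DNA replication. Genes of G2 and mitosis follow later in the same cycle and are bound at their promoters by the DREAM and B-MYB complexes, often through a cell cycle homology region (CHR) placed close to a set of CCAAT boxes. Neurons of the adult hippocampus no longer divide, while progenitors of the dentate gyrus, oligodendrocyte precursors and, after an injury or near plaques, microglia still do. Several D-type cyclins and helicase subunits are also transcribed in cells that do not divide, whereas Mki67, Top2a, Cdk1 and the mitotic kinases are standard markers of dividing cells.

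The promoters of 4 members are printed to show how the members differ in these elements, because the late genes among them had the largest differences between genotypes below. Each is the RefSeq sequence of the GRCm38.p6 build from 250 bases before to 50 bases after the gene's start, read along the gene's own strand. Capitals mark every match, on either strand, to the CHR letters TTTGAA or TTCGAA, to CCAAT, or to the E2F letters TTTCCCGC, TTTCGCGC, TTTGCCGC or TTTGGCGC. The Cdk1 window is at chr10:69352863-69353162 (minus strand), that of Mki67 at chr7:135716330-135716629 (minus strand), that of Top2a at chr11:99024140-99024439 (minus strand) and that of Mcm6 at chr1:128359656-128359955 (minus strand).
Cdk1: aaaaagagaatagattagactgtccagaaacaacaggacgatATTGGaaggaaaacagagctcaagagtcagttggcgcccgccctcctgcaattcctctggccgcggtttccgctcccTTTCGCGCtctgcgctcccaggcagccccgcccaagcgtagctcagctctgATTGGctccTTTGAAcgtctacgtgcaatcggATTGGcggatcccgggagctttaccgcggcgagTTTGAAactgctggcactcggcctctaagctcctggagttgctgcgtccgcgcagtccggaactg
Mki67: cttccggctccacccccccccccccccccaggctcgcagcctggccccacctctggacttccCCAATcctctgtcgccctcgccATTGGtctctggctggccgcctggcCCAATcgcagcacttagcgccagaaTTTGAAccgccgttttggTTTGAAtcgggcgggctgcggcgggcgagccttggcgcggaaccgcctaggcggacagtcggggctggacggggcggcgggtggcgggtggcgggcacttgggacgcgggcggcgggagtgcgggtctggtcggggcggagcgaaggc
Top2a: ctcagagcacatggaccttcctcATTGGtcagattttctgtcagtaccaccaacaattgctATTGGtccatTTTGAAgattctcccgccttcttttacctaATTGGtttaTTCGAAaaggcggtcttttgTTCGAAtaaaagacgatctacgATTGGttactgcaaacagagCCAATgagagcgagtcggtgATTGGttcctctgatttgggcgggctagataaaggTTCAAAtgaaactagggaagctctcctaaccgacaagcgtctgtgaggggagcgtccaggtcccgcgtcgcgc
Mcm6: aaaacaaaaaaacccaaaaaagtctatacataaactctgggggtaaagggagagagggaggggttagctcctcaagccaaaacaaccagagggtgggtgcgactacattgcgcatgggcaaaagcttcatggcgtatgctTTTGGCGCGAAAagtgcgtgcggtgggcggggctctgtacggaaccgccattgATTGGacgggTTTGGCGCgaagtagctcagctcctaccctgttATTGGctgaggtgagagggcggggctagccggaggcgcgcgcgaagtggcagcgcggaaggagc
Cdk1 had CHR letters at positions -71 and -15 from the gene's start, CCAAT letters at -208, -80 and -48, and an E2F match at -131. Mki67 and Top2a had CHR and CCAAT matches but no E2F match, with 4 CHR and 6 CCAAT matches in Top2a. Mcm6, a helicase subunit, had 3 E2F matches, of which the first and the second overlap, with 2 CCAAT matches and no CHR match. A promoter was listed for 29 of the 35 members, and Ccnd1, Ccnd2, Mcm4, Ccna2, Aurkb and Tpx2 are named only. CHR letters were in 14 of the 29 windows (48.3%), against 19.4% of all 27025 promoter windows of the same length. CCAAT letters were in 23 of the 29 (79.3%, against 37.9% of all), and E2F letters in 6 of the 29 (20.7%, against 2.32% of all). By role, CHR letters were in 4 of 5 windows of the mitotic kinases and checkpoint genes and in 4 of 5 of the centromere, spindle and midzone genes, but in 0 of 3 of the D-type cyclin group. E2F letters were in 4 of 5 helicase windows and in none of those mitotic windows. Birc5 and Cdk6, which had some of the larger differences below, held none of these letters. A match describes the letters of this window and does not show that a factor binds there.

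Total counts were 18997677 to 23873280 per library, and no pair of libraries of a group agreed within sampling noise. Thy1, whose promoter drives the transgenes, had 58808, 59242 and 58555 counts in 5xFAD, against 19139, 19135 and 17785 in WT, so that no library went against its genotype label, and mouse App was at a log2 fold change of -0.09 with an adjusted p of 0.519. All 8 hippocampal markers looked at were detected in all 6 libraries, but some differed between genotypes. In the edgeR quasi-likelihood test, 3 of the 8 (Prox1, Dsp and Zbtb20) were higher at an unadjusted p under 0.05. Fibcd1 and Spink8 were lower by that measure, beside 9.87% of all genes tested that were higher and 9.03% that were lower. These named markers did not overlap, and 0 of the 8 passed an adjusted p of 0.05. Whether the sampled parts of the hippocampus differed was not tested. Of the 13937 genes tested, 106 (0.761%) passed an adjusted p of 0.05 in the edgeR quasi-likelihood test with Benjamini-Hochberg adjustment, 93 of them higher and 13 lower in 5xFAD. The deviation of 5xFAD replicates 1 and 2 from the WT mean ran with GC content across 13707 genes (Spearman -0.53 and -0.66), while that of 5xFAD replicate 3 hardly did (-0.07). Genes rich in GC were therefore low in the first 2 5xFAD libraries, and values with a GC and length term and with 5xFAD replicate 3 alone are plotted below for every tested member and printed for some genes. The fit with 5xFAD replicate 3 alone has 1 library in that group, so its p-values rest on the spread of the 3 WT libraries and assume that the lone library varies like them. Genes are not independent replicates, so these correlations only describe the libraries.

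Among the 34 tested members, 1 rose and 0 fell at an adjusted p under 0.05 in the edgeR quasi-likelihood test, where 0.667% of all genes tested rose and 0.0933% fell. The gene that rose was Cdk1, which also had a fold change over 2, as 0.531% of all genes did at that threshold in either direction. Other tests on the same counts called more or fewer members, all higher in 5xFAD. DESeq2 called Cdk1, Mki67 and Bub1b (3 of 34, beside 2.38% of all genes), the edgeR exact test called these and Cdk6 and Birc5 (5 of 34, beside 2.60%), and limma-voom called 0 of 34, beside 0.639%. Further, 10 members were higher and 0 lower at an unadjusted p under 0.05, or 10 of 34, beside 9.87% of all genes tested that were higher and 9.03% that were lower by the same measure. The 5xFAD and WT libraries did not overlap for 17 of the 35 members, all higher in 5xFAD, 16 of them among the 34 tested, beside 13.2% of all genes tested. The log2 fold change was above 0 for 26 of the 34, beside 49.1% of all genes, and was 1 or more for 7, beside 1.65%. The median log2 fold change of the tested members was 0.43, and that of all genes tested was -0.0062. Cdk1, Cdk6, Ccnb1, Bub1 and Cenpf reached the minimum of the filter in all 3 5xFAD libraries but not in all 3 WT libraries, so that the filter itself favoured members high in 5xFAD. Without these 5, the unadjusted p was under 0.05 for 7 of 29 members, all higher in 5xFAD, and the median log2 fold change was 0.34. With 3 libraries a group, the smallest two-sided exact permutation p for 1 value is 0.1, so members were tested only in the fit across all genes.

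**Figure D1:**
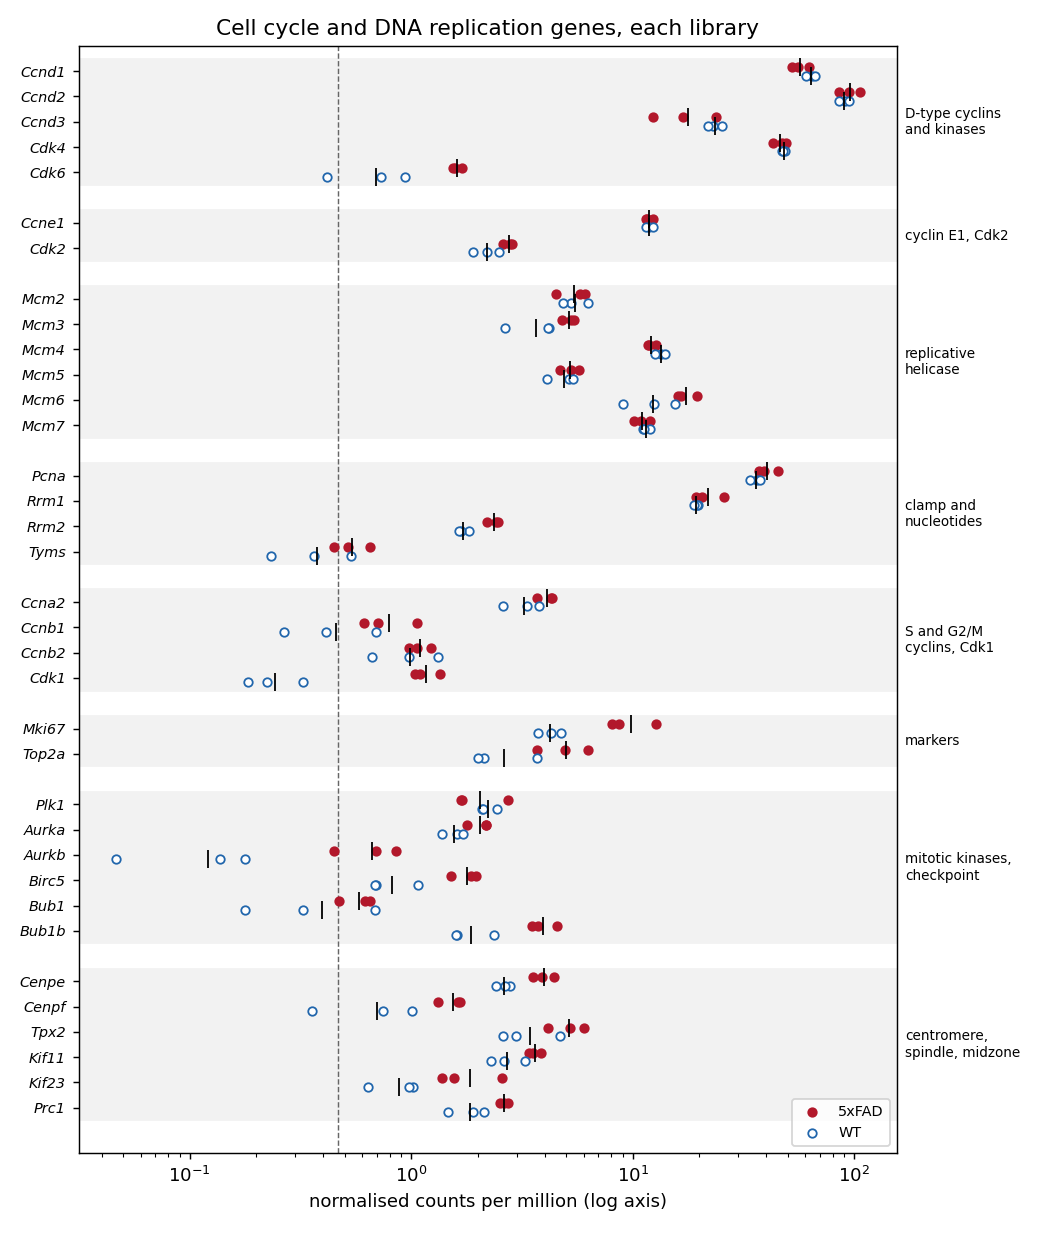
Normalised counts per 1000000 counts of the library (CPM, log axis) of the 35 members in each library, by role group, with 5xFAD as filled red points above WT as open blue points, a bar at each mean (n = 3 each), and a dashed line at the filter's minimum of 0.465 CPM, which was applied before normalisation. The red and blue points of Cdk1, Mki67, Birc5 and Bub1b do not overlap, while those of Ccnd3 and Plk1 do.

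The members differed in level. Per kilobase of the longest protein-coding transcript, the highest level was that of Pcna, the sliding clamp of DNA polymerase, at 26.7 CPM per kb in 5xFAD and 23.7 in WT. Cdk4, the kinase partner of the D-type cyclins, followed at 22.6 CPM per kb in 5xFAD and 23.3 in WT. Ccnd2 and Ccnd1 lay between 14 and 18. All 18 members of the S, G2 and mitosis groups lay under 2 CPM per kb in both genotypes, and so did Cdk6, Cdk2, Mcm2, Mcm3, Mcm5, Rrm2 and Tyms. The lowest of all was Cdk1 in WT, at 0.0556 CPM per kb, against 0.265 in 5xFAD. Cdk6 and Aurkb in WT were almost as low, at 0.0602 and 0.0618 CPM per kb, against 0.139 and 0.340 in 5xFAD. The late genes are thus low-count genes in this tissue, and counting error weighs on them more than on the D-type cyclins.

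The D-type cyclin group held the members with the highest counts, and its values overlapped between genotypes for all but Cdk6. Ccnd2, a D-type cyclin also used by neural progenitors, had the highest mean count of the group, with 2013, 1516 and 2598 counts in 5xFAD and 2037, 1843 and 2070 in WT. These counts overlapped, and the log2 fold change was 0.08 with an SE of 0.10 and an adjusted p of 0.639 (edgeR, as in the tests below). Ccnd1 was at a log2 fold change of -0.17 (95% interval -0.39 to 0.05), and Cdk4 at -0.05 (-0.24 to 0.15). Ccnd3, another D-type cyclin, had 358, 221 and 586 counts in 5xFAD and 516, 473 and 553 in WT. Only 5xFAD replicates 1 and 2 were low for Ccnd3, which has the highest GC content of the members at 58.5%, and its log2 fold change was -0.40 with all libraries and 0.04 with 5xFAD replicate 3 alone. Cdk6, the other kinase that pairs with D-type cyclins, had 36, 28 and 38 counts in 5xFAD and 21, 9 and 16 in WT. Every 5xFAD library was above every WT library, with a log2 fold change of 1.20 ± 0.34 (SE) and an adjusted p of 0.190, so the difference did not pass the threshold. It was 1.16 with 5xFAD replicate 3 alone.

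Cyclin E1 and its kinase Cdk2 carry the cell into S phase. Ccne1 had 261, 205 and 285 counts in 5xFAD and 265, 248 and 271 in WT, and the groups overlapped. The log2 fold change of Ccne1 was -0.01 ± 0.11 (SE), with an adjusted p of 0.956 and a 95% interval of -0.26 to 0.24. Cdk2 had 55, 51 and 69 counts in 5xFAD and 56, 41 and 48 in WT, which after normalisation did not overlap, at a log2 fold change of 0.32 with an adjusted p of 0.372.

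The 6 subunits of the replicative helicase, Mcm2 to Mcm7, form the ring that unwinds DNA ahead of the polymerases, and their log2 fold changes did not share a sign. They ran from -0.14 for Mcm4 to 0.50 for Mcm3, with a median of 0.05. Mcm6, with the highest mean count of the group, had 340, 347 and 404 counts in 5xFAD and 281, 195 and 341 in WT. After normalisation the genotypes did not overlap for Mcm6, at a log2 fold change of 0.48 ± 0.20 (SE) with an adjusted p of 0.259. Mcm3 had 112, 97 and 118 counts in 5xFAD and 94, 57 and 91 in WT, and its adjusted p was 0.268. In Mcm3 and Mcm6, WT replicate 2 was the lowest library. Mcm2, Mcm5 and Mcm7 overlapped between genotypes and stayed within 0.11 log2 units of 0. With the GC and length term, Mcm4 was at -0.29 with an unadjusted p of 0.0183 and an adjusted p of 0.210, the only member lower at an unadjusted p under 0.05 in that fit.

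The group of the clamp and the nucleotide enzymes had a median log2 fold change of 0.31 and no member at an unadjusted p under 0.05. Pcna had 828, 808 and 918 counts in 5xFAD and 818, 812 and 741 in WT. Its groups overlapped, at a log2 fold change of 0.17 ± 0.10 (SE) with an adjusted p of 0.348, and at -0.01 with the GC and length term. Rrm1 and Rrm2, the large and the small subunit of ribonucleotide reductase, which makes deoxynucleotides, were at 0.17 and 0.45, and only Rrm2 did not overlap. Rrm2 had 52, 43 and 54 counts in 5xFAD and 41, 36 and 36 in WT, with an adjusted p of 0.277. Tyms, thymidylate synthase, had only 5 to 16 counts in any library, and its interval was -0.46 to 1.49.

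Cdk1, the kinase that drives entry into mitosis, was the member with the largest fold change of the 34 tested. The gene lies at chr10:69335146-69352938 on the minus strand. It had 22, 24 and 27 counts in 5xFAD, against 5, 7 and 4 in WT. The lowest 5xFAD library thus held more than 3 times the count of the highest WT library, although all counts were low. The log2 fold change was 2.22 ± 0.36 (SE), a 4.67-fold difference, with an adjusted p of 0.0444 (n = 3 each). In normalised counts, Cdk1 was at 1.16 ± 0.16 CPM in 5xFAD and 0.243 ± 0.073 CPM in WT (SD, n = 3 each). No WT library reached the filter's minimum for Cdk1. The adjusted p was 0.0318 with the GC and length term, but 0.243 with 5xFAD replicate 3 alone and 0.0505 to 0.0579 with limma-voom, library totals, the study's detection rule or no filter on low counts, at log2 fold changes of 2.17 to 2.22 in these fits. The call was also lost when any 1 library other than 5xFAD replicate 3 was left out, with adjusted p-values of 0.0504 to 0.289 and log2 fold changes of 2.06 to 2.48. Cdk1 therefore kept its direction and size in these fits, while its side of the threshold depended on the fit.

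The cyclins that pair with Cdk1 had smaller differences than Cdk1. Ccna2, cyclin A2, which also acts in S phase, had 91, 66 and 105 counts in 5xFAD and 85, 72 and 57 in WT, and the groups overlapped. Cyclin A2 was at a log2 fold change of 0.34 ± 0.21 (SE), with an adjusted p of 0.352. Ccnb1 had 15, 19 and 15 counts in 5xFAD and 6, 15 and 9 in WT, and Ccnb2 had 26, 19 and 24 in 5xFAD and 15, 21 and 29 in WT. Both B-type cyclins overlapped, at log2 fold changes of 0.77 (95% interval -0.26 to 1.80) and 0.14 (-0.63 to 0.91). The Ccnb1 sequence has processed copies of up to 99.2% identity elsewhere in the genome, so its low counts are uncertain. Whether Cdk1 and its cyclins differ in their response was not tested.

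Both proliferation markers were higher in every 5xFAD library. Mki67, which encodes the Ki-67 protein that coats mitotic chromosomes and is the usual stain for dividing cells, lies at chr7:135689784-135716361 on the minus strand. It had 184, 227 and 199 counts in 5xFAD and 96, 102 and 82 in WT, so that the groups were well apart. This gave a log2 fold change of 1.20 ± 0.21 (SE), a 2.30-fold difference, with an adjusted p of 0.0614, just outside the threshold. The adjusted p of Mki67 was 0.0297 with the GC and length term, 9.0e-05 in DESeq2 and 6.6e-05 in the edgeR exact test. It was 0.0796 in limma-voom. When 1 library was left out it ran up to 0.317, and it was under the threshold only without 5xFAD replicate 2 (0.0221) and without 5xFAD replicate 3 (0.0147), at log2 fold changes of 0.98 to 1.33 over the 6 such fits. With 5xFAD replicate 3 alone the log2 fold change was 0.94 with an adjusted p of 0.155. Top2a, the topoisomerase that untangles chromosomes before they part, had 105, 112 and 91 counts in 5xFAD and 83, 46 and 44 in WT. The lowest 5xFAD library, replicate 3, lay only just above WT replicate 1 in normalised counts. The log2 fold change of Top2a was 0.92 ± 0.31 (SE) with an adjusted p of 0.225, and it was 0.52 with 5xFAD replicate 3 alone and 0.72 with the GC and length term.

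**Figure D2:**
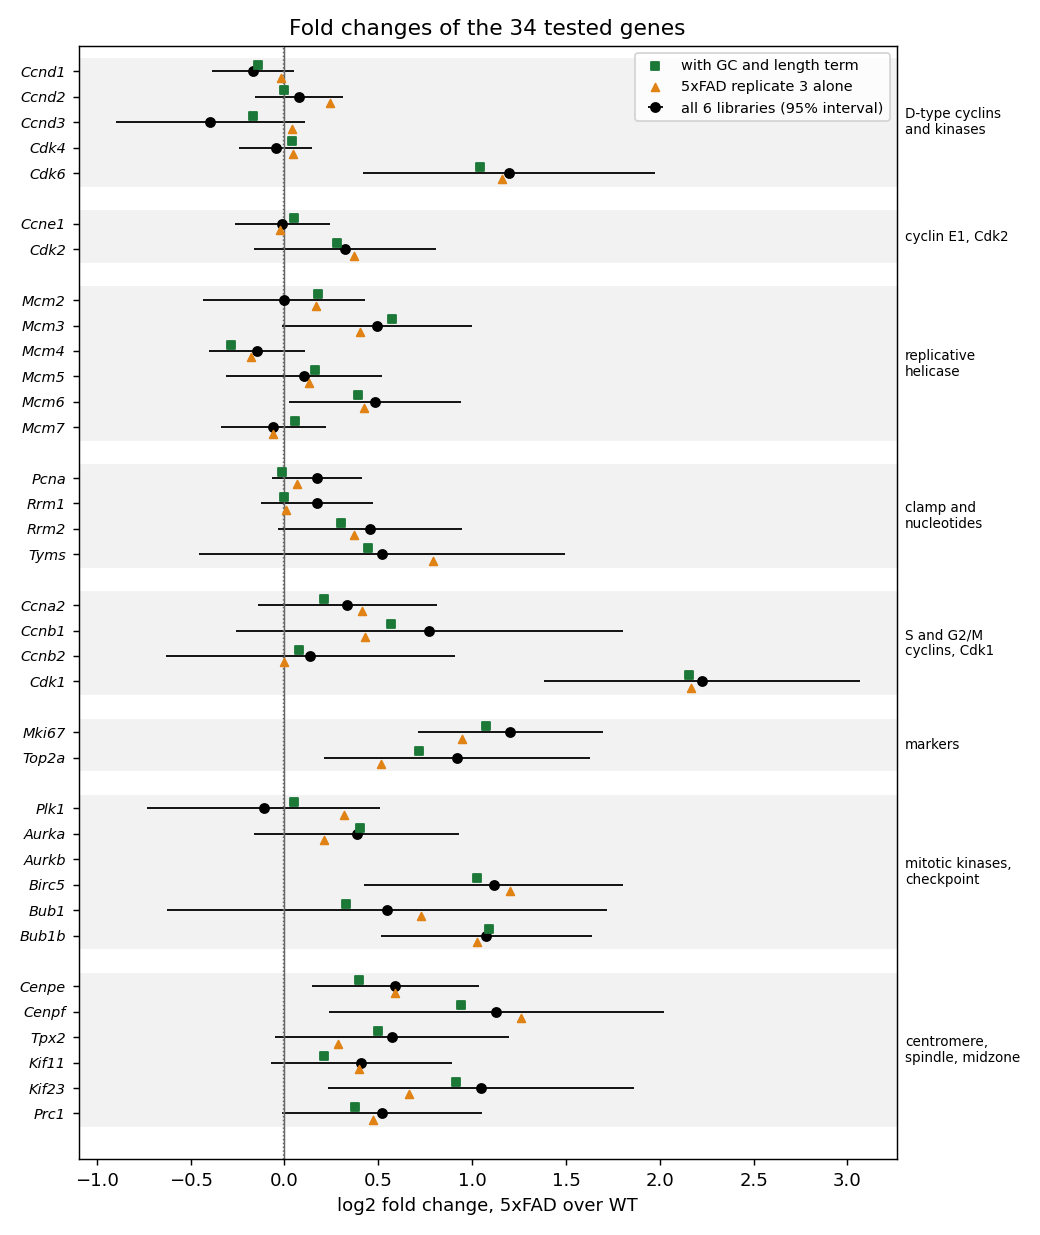
Log2 fold changes (5xFAD over WT) of the 34 tested members by role, as black points with 95% intervals from all 6 libraries, green squares with the GC and length term and orange triangles with 5xFAD replicate 3 alone, with the dotted line at the median of all genes tested. Cdk1 stands farthest right at 2.22, and 8 of the 17 tested genes of the lower 4 role groups have intervals that exclude 0, against 2 of the 17 in the upper 4. All of these are higher in 5xFAD, beside 9.87% of all genes tested that were higher and 9.03% that were lower at an unadjusted p under 0.05 (edgeR quasi-likelihood). Cdk1, Cenpf and Cdk6 among them were favoured by the filter.

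Among the mitotic kinases and checkpoint genes, Bub1b, Birc5 and Aurkb were the ones with the larger differences. Bub1b encodes BubR1, a spindle checkpoint protein that holds back anaphase until chromosomes are attached. It had the highest mean count of the group, with 74, 81 and 92 counts in 5xFAD and 36, 51 and 35 in WT. All 5xFAD libraries were higher, at a log2 fold change of 1.08 ± 0.24 (SE) with an adjusted p of 0.128. This difference was of like size with the GC and length term (1.09) and with 5xFAD replicate 3 alone (1.03), and the adjusted p was 0.0111 in DESeq2 and 0.00418 in the exact test. Birc5 encodes survivin, a subunit of the chromosomal passenger complex that activates aurora B. It had 32, 35 and 46 counts in 5xFAD and 24, 15 and 15 in WT. The genotypes did not overlap, at a log2 fold change of 1.12 ± 0.30 (SE) with an adjusted p of 0.172. Aurkb, the kinase of the same complex, had 18, 8 and 17 counts in 5xFAD, against 4, 1 and 3 in WT. Pooled over the libraries and scaled to library size, that is a ratio of 5.57 with an exact 95% counting interval of 2.59 to 13.7, which covers counting error only and not the spread between mice. Aurka, the centrosomal aurora kinase, was at a log2 fold change of 0.39 with an adjusted p of 0.352, and its groups did not overlap. Plk1, another mitotic kinase, had 36, 30 and 67 counts in 5xFAD and 55, 45 and 46 in WT. Plk1 was low in the first 2 5xFAD libraries and high in 5xFAD replicate 3, and its GC content of 56.0% is the second highest of the members. Its log2 fold change was -0.11 with all libraries, 0.05 with the GC and length term and 0.32 with 5xFAD replicate 3 alone, so its sign changed between these fits. Bub1, the checkpoint kinase, had 10, 11 and 16 counts in 5xFAD and 4, 7 and 15 in WT, and its interval of -0.62 to 1.72 is wide.

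The 6 genes of the centromere, the spindle and the midzone all had positive log2 fold changes, with a median of 0.58, and none passed the adjusted threshold. Cenpe, a kinetochore motor that moves chromosomes to the middle of the spindle, had 75, 79 and 96 counts in 5xFAD and 63, 52 and 58 in WT. These did not overlap, at a log2 fold change of 0.59 ± 0.19 (SE) with an adjusted p of 0.221. Cenpf, a large protein of the outer kinetochore, had 28, 29 and 41 counts in 5xFAD and 8, 16 and 22 in WT, again without overlap. Its log2 fold change was 1.13 ± 0.38 (SE), with an adjusted p of 0.228. Kif23, a motor of the midzone needed for cytokinesis, had 33, 46 and 34 counts in 5xFAD and 23, 21 and 14 in WT. Every 5xFAD library of Kif23 was above WT, at a log2 fold change of 1.05 ± 0.35 (SE) with an adjusted p of 0.227, although 5xFAD replicate 2 was well above the other two and the value with 5xFAD replicate 3 alone was 0.67. Tpx2, which activates aurora A on the spindle, had 110, 108 and 102 counts in 5xFAD and 106, 64 and 57 in WT. WT replicate 1 overlapped the 5xFAD libraries, and the log2 fold change was 0.57 ± 0.27 (SE) with an adjusted p of 0.279. Kif11, the motor that pushes the spindle poles apart, and Prc1, which bundles the midzone microtubules, did not overlap between genotypes, at 0.41 and 0.52 with adjusted p-values of 0.300 and 0.268.

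The groups of G1 and S phase and those of G2 and mitosis are given side by side, beside 9.87% of all genes tested that were higher at an unadjusted p under 0.05 and 13.2% that were higher without overlap. Of the 17 genes in the D-type cyclin, cyclin E, helicase and nucleotide groups, 2 had an unadjusted p under 0.05, a share near that of all genes, and 5 did not overlap, all higher in 5xFAD, with a median log2 fold change of 0.10. Of the 18 later genes, 17 were tested, 8 had an unadjusted p under 0.05 and 12 of the 18 did not overlap, all higher in 5xFAD, with a median of 0.59. The members favoured by the filter are Cdk1, Ccnb1, Bub1 and Cenpf in the later set and Cdk6 in the earlier. Cdk1, Cenpf and Cdk6 are in both counts of their set, and Aurkb, under the filter, is among the 12. The values of each set without these members were not computed. The later genes together summed to 49.3, 58.3 and 47.3 CPM in 5xFAD, against 33.6, 31.7 and 27.5 CPM in WT. The earlier genes summed to 348.7, 341.1 and 370.9 CPM in 5xFAD, against 351.3, 339.8 and 354.9 CPM in WT. The sums of the later genes therefore did not overlap between genotypes, while those of the earlier genes did. The medians were 0.50 for the later and 0.06 for the earlier genes with the GC and length term, and 0.52 and 0.13 with 5xFAD replicate 3 alone. The difference between these 2 sets was not tested, since the members were chosen with results of these data known.

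**Figure D3:**
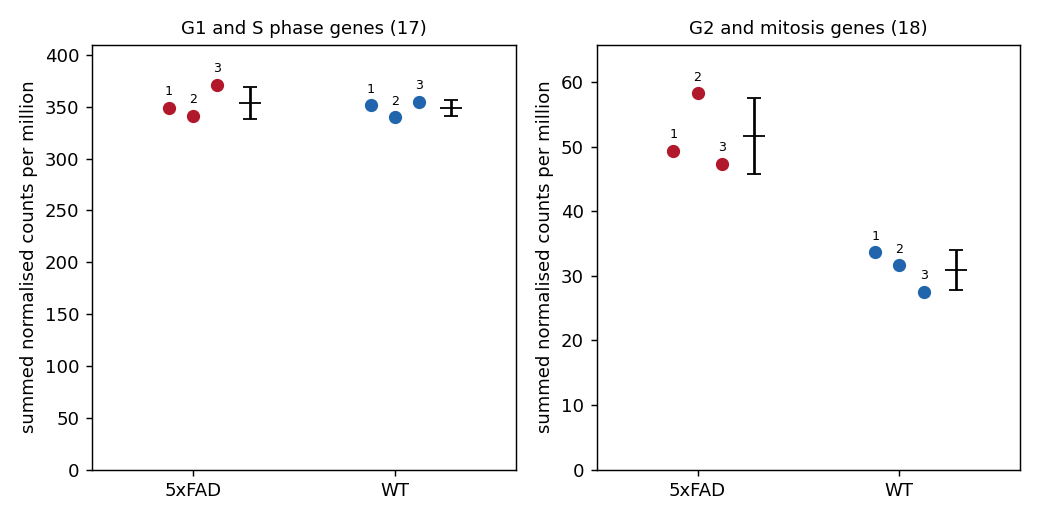
Summed normalised CPM of the 17 G1 and S phase genes (left) and of the 18 G2 and mitosis genes (right) in each library, numbered by replicate, with the mean and SD (n = 3 each) beside the points. In the right panel the 5xFAD libraries lie at 47.3 to 58.3 CPM and the WT libraries at 27.5 to 33.6 CPM, while the left panel overlaps.

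The members' fold changes also ran with GC content. Across the 34 tested members the Spearman correlation of log2 fold change and GC content was -0.53, and it was -0.27 with the GC and length term and -0.45 with 5xFAD replicate 3 alone. These points share all libraries and are a description only. Ccnd3, Plk1 and Mcm2, the tested members richest in GC, were at -0.40, -0.11 and -0.003, and Bub1, Kif11, Cenpe and Cenpf, the poorest in GC, were at 0.41 to 1.13. Among the members with larger differences, Cdk1 (47.8%), Mki67 (46.6%), Birc5 (47.4%), Bub1b (50.4%) and Kif23 (46.3%) lay in the middle of the range. Others with larger differences, Cdk6 (45.1%), Top2a (43.4%) and Cenpf (43.3%), were poorer in GC. With the GC and length term the median log2 fold change of the tested members was 0.32, that of all genes was -0.01, and 9 members were higher at an unadjusted p under 0.05, beside 9.09% of all genes. Cdk1 and Mki67 passed the adjusted threshold in that fit, beside 1.08% of all genes. With 5xFAD replicate 3 alone, 5 of the 34 members were higher at an unadjusted p under 0.05, beside 6.37% of all genes, and none passed the adjusted threshold.

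**Figure D4:**
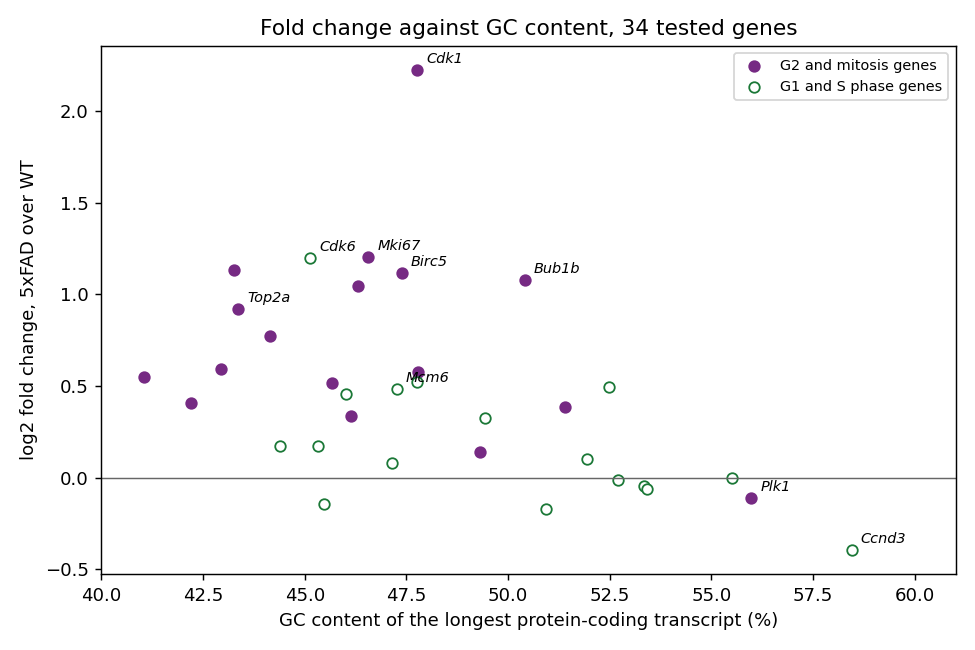
Log2 fold change (5xFAD over WT) against the GC content of the longest protein-coding transcript for the 34 tested members, with G2 and mitosis genes as filled purple points and G1 and S phase genes as open green points. Values fall toward the GC-rich genes Plk1 and Ccnd3. Cdk1, Mki67, Birc5 and Bub1b lie near the middle of the GC range, while Cdk6 and Top2a lie lower in GC.

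Other genes of the same pathway were read from 5 further lists, and none of their tested members passed the adjusted threshold in the quasi-likelihood test. The counts at an unadjusted p under 0.05 stand beside 9.87% of all genes tested that were higher and 9.03% that were lower. In the mitosis and cytokinesis list, 7 of 36 tested genes were higher at an unadjusted p under 0.05 and 0 lower, with a median log2 fold change of 0.49, or 0.19 with 5xFAD replicate 3 alone. Nuf2, a subunit of the kinetochore complex that binds microtubules, had 126, 113 and 152 counts in 5xFAD and 84, 70 and 78 in WT. Nuf2 was at a log2 fold change of 0.81 ± 0.16 (SE) with an adjusted p of 0.0827. Cdca8 encodes borealin, another subunit of the chromosomal passenger complex beside Birc5 and Aurkb, and had 41, 38 and 56 counts in 5xFAD and 25, 21 and 17 in WT. All 5xFAD libraries of Cdca8 were higher, at a log2 fold change of 1.14 ± 0.26 (SE) with an adjusted p of 0.130. Incenp, the scaffold of that complex and chosen after its values were seen, overlapped at 341, 338 and 344 counts in 5xFAD and 341, 302 and 381 in WT. In the replication list, 4 of 42 tested genes were higher at an unadjusted p under 0.05 and 0 lower, a share near that of all genes, with a median of 0.16, or 0.05 with the GC and length term. Gins1, a subunit of the GINS complex that joins the helicase, had 29, 14 and 19 counts in 5xFAD and 4, 6 and 6 in WT, without overlap. Its log2 fold change was 1.98 ± 0.42 (SE) with an adjusted p of 0.112. Orc4, a subunit of the origin recognition complex, was at 0.48 with an adjusted p of 0.226, at 0.17 with the GC and length term and at 0.29 with 5xFAD replicate 3 alone.

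Genes that regulate the cycle were read in 3 of these lists. In the list of RB, E2F and DREAM genes, 2 of 16 tested genes were higher at an unadjusted p under 0.05 and 0 lower, with a median log2 fold change of 0.15, or 0.05 with 5xFAD replicate 3 alone. Rbl1 encodes p107, a pocket protein of the DREAM complex, and was at 0.60 with an adjusted p of 0.225, and Lin54, the DREAM subunit that contacts CHR elements, was at 0.45 with an adjusted p of 0.236. With the GC and length term Rbl1 was at 0.38 and Lin54 at 0.21, and with 5xFAD replicate 3 alone they were at 0.31 and 0.23. Of 6 tested CDK inhibitors, 2 were higher at an unadjusted p under 0.05 and 0 lower, with a median of 0.01, which was 0.26 with the GC and length term and 0.28 with 5xFAD replicate 3 alone. Cdkn1a, the inhibitor p21 that halts the cycle, had 428, 312 and 463 counts in 5xFAD and 306, 317 and 291 in WT, which did not overlap once normalised. Its log2 fold change was 0.44 ± 0.11 (SE) with an adjusted p of 0.149, and with the GC and length term it was 0.57 with an adjusted p of 0.0364. Cdkn1b, the inhibitor p27, was at 0.56 with an adjusted p of 0.245, but its groups overlapped, and it was at 0.33 with the GC and length term and 0.03 with 5xFAD replicate 3 alone. Among 11 further cyclins and CDKs the median was 0.04, or 0.01 with the GC and length term and -0.05 with 5xFAD replicate 3 alone. Cdk5, a neuronal kinase that does not drive the cycle, was lower at an unadjusted p under 0.05, with a log2 fold change of -0.29 (-0.11 with 5xFAD replicate 3 alone) and an adjusted p of 0.229, and Ccnc, the cyclin of the Mediator complex, was at 0.47 with an adjusted p of 0.264, at 0.11 with the GC and length term and at 0.02 with 5xFAD replicate 3 alone.

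**Figure D5:**
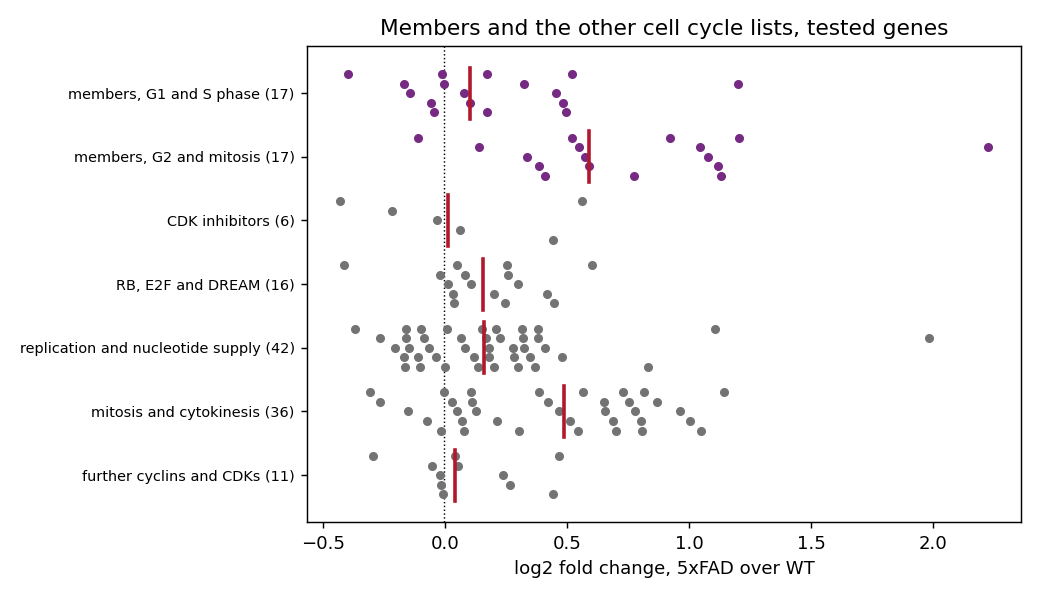
Log2 fold changes (5xFAD over WT) of the tested genes in the 2 sets of members (purple) and in 5 other cell cycle lists (grey), with a red bar at each median and a dotted line at the median of all genes tested; numbers in brackets count the genes. The medians of the G2 and mitosis members (0.59) and of the mitosis and cytokinesis list (0.49) lie to the right of the others.

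7 microglial markers rose, while no marker of the other cell types that can divide passed the adjusted threshold. Of the 11 microglial markers tested of 12, 7 rose and 0 fell at an adjusted p under 0.05, and the summed level of the list was 769.7, 657.6 and 867.5 CPM in 5xFAD replicates 1 to 3, against 403.1 to 410.5 CPM in WT. Tyrobp, a microglial adaptor protein, was at a log2 fold change of 1.70 with an adjusted p of 0.0162. P2ry12, a receptor of resting microglia, was at 94.9, 117.8 and 81.7 CPM in 5xFAD replicates 1 to 3, against 50.4 to 58.1 CPM in WT. Tmem119, another marker in the list, did not rise, with 412, 226 and 558 counts in 5xFAD and 454, 405 and 402 in WT. Its groups overlapped, at a log2 fold change of -0.06 with an adjusted p of 0.86, and it was at 0.19 with the GC and length term. Of 11 tested markers of neural progenitors and immature neurons, 0 passed the adjusted threshold in either direction, and the list summed to 168.2 to 174.4 CPM in 5xFAD and 157.5 to 186.5 CPM in WT. Igfbpl1, a marker of immature granule neurons, had 13, 11 and 20 counts in 5xFAD and 46, 66 and 31 in WT, with a log2 fold change of -1.66 and an adjusted p of 0.120. Dcx, the usual marker of young neurons, overlapped between genotypes at a log2 fold change of 0.17, which was -0.10 with the GC and length term and -0.20 with 5xFAD replicate 3 alone. Of 9 tested markers of oligodendrocyte precursors, 0 passed the adjusted threshold and 3 were lower at an unadjusted p under 0.05, beside 9.03% of all genes tested. The list summed to 364.8, 315.7 and 411.5 CPM in 5xFAD replicates 1 to 3, against 419.0 to 464.2 CPM in WT. Its median log2 fold change was -0.23, but -0.12 with the GC and length term and -0.10 with 5xFAD replicate 3 alone. The endothelial list summed to 226.1 to 257.4 CPM in 5xFAD and 254.7 to 296.3 CPM in WT, with 0 of 7 tested past the adjusted threshold. Ependymal and choroid plexus markers summed to 181.3 to 442.4 CPM in 5xFAD, against 105.3 to 118.9 CPM in WT, mostly through Ttr, with 0 of 7 past the adjusted threshold. Ttr was just outside it, at a log2 fold change of 1.73 with an adjusted p of 0.0586. With the GC and length term Ttr passed, at 1.55 with an adjusted p of 0.0248, and with 5xFAD replicate 3 alone it was at 0.94. Red blood cell markers summed to 1.06 to 2.35 CPM in 5xFAD, against 54.9 to 84.9 CPM in WT, and 4 of 5 fell at an adjusted p under 0.05. The libraries of the groups thus differed in blood RNA, although the study's methods describe perfusion without a difference between groups. Why they differed was not tested. The part of these cell types in the members' differences was not tested.

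Several members share sequence with other genes, and their counts are uncertain to that extent, because it is not stated whether the counting used strand. Exons of Ccnd1 overlap those of LTO1 on the opposite strand over 23.4% of their length, those of Cdk4 overlap Tspan31 over 19.7%, those of Ccna2 overlap Exosc9 over 12.5% and those of Prc1 overlap Rccd1 over 11.1%. Mcm7, Pcna, Ccnd3 and Rrm2 have pseudogene copies with stretches of at least 95% identity. Cdk1, Mki67, Bub1b and Birc5 had neither an overlap of exons with another gene nor such a copy.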

How the data were processed

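Hippocampal mRNA of mice aged 3 months was sequenced as 3 5xFAD and 3 WT libraries. Per the study's methods, ribosomal RNA was depleted and low-input libraries were read as pairs. The submitters' processing notes name cutadapt 1.9.3, HISAT2 2.0.4, HTSeq 0.9.1, edgeR 3.16.5 and the mm10 build, while annotation release and strand setting were not found in the sources. Values analysed were the raw count per gene as deposited by the authors. The authors' own normalised counts, in a further 6 per-sample columns, were left out.

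Each library was assigned its genotype by its title. The description of the transgenes is not complete, since 1 item is not reported here. Per the study, the 3 libraries of a group were independent biological replicates. Members and gene lists were chosen with earlier results of these data known.

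R 4.3.3 and edgeR 4.0.16 were used: filterByExpr with a minimum count of 10, TMM scaling, and the two-sided quasi-likelihood test on genotype without a block, with Benjamini-Hochberg adjustment over all 13937 genes tested and a threshold of 0.05. The SE is the size of the log2 fold change over the square root of F. CPM used TMM effective library sizes. Totals of 18997677 to 23873280 counts set the precision of low genes, and count intervals cover counting error only, since PCR copies were not marked. GC content, length and coordinates were those of GENCODE M21 (GRCm38), available for 98.4% of tested genes, and the GC and length term was a spline (4 degrees of freedom for each property) fitted to each library as an offset. Near-identical copies were transcripts with at least 95% identity over at least 300 bases. The quasi-likelihood test, the exact test, limma-voom and DESeq2, without a block or a GC and length term, were run on simulated counts with known changes. The searches for overlaps, copies and promoter letters were not run on simulated data. All values are printed for members with an unadjusted p under 0.05 and for the member with the highest mean count of each role group. From each other list the 2 genes with the smallest p were named. Alternatives were other scalings, filters and tests (DESeq2 1.42.0, limma 3.58.1, the edgeR exact test), the replicate number as a block, leaving out libraries, and the GC and length term.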

Additional observations from a re-analysis of the deposited data

How the results depend on the processing

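The direction of the members as a set held in all 18 alternative fits: the number of members above 0 was 26 to 31, and the median log2 fold change of the members, 0.43 in the quasi-likelihood test with all 6 libraries, stayed between 0.32 and 0.46. It was 0.396 with library totals and with 5xFAD replicate 3 alone, 0.315 with the GC and length term, 0.346 with the replicate block and that term together, 0.336 without the 5 members favoured by the filter, and 0.356 to 0.460 when 1 library was left out, lowest without WT replicate 2. The members higher at an unadjusted p under 0.05, a count chosen after seeing the data, were 8 to 12 in the fits with at least 2 libraries a group. The share of all genes tested that were higher by that measure differed between these fits. It ran from 5.09% without WT replicate 1 to 20.9% without 5xFAD replicate 3, so like counts of members do not mean a like excess. In the main fit without the 5 members favoured by the filter, the count was 7 of 29, beside 9.87% of all genes. The members that did not overlap, also counted after seeing the data, were 13 to 17 with all 6 libraries, the lowest without those 5. They were 17 to 20 when 1 library was left out, but groups with fewer libraries overlap less readily, so these counts cannot be compared. The share of all genes, 13.2% higher without overlap, was computed only for the main fit with all 6 libraries.

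The adjusted calls depended on the processing. Members past the threshold, 1 in that test, were 0 with library totals, 0 with the study's detection rule, 0 with limma-voom, 0 with 5xFAD replicate 3 alone and 0 without the 5 members favoured by the filter, 2 with the GC and length term, 3 in DESeq2 and 5 in the edgeR exact test. Leaving out 1 library gave 0 to 5 such members. Without 5xFAD replicate 3 they were 5 of 34 (Ccnd3, lower, with Cdk1, Mki67, Top2a and Bub1b). In that fit 3229 of 14103 genes tested passed, which is a larger share than that of the members. Without 5xFAD replicate 2 there was 1 of 35 (Mki67), beside 227 of 14089 genes. Leaving out any other library gave 0 members, beside 12 to 20 genes. With no filter the call was Mki67 and not Cdk1. Genes past the threshold, 106 in that test, were 69 with library totals, 179 with the GC and length term, 507 in DESeq2 and 567 in the exact test, and 12 to 3229 when 1 library was left out. The highest count came without 5xFAD replicate 3, with 227 without 5xFAD replicate 2 and 12 to 20 without any other library. The cause was not tested.

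The replicate block gave 20 genes and 0 members past the threshold. Libraries with the same number did not deviate together (correlations of -0.0077, -0.028 and -0.036), so they share only a number. With the block and the GC and length term, 99 genes and 1 member (Mki67) passed.

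These members changed sign, each with an adjusted p over 0.5 in the fit where it did. Ccnd3, which did so with 5xFAD replicate 3 alone, was past the threshold without that library, at -0.67 with an adjusted p of 0.0232. With the GC and length term these were Ccnd2 (-0.0025), Cdk4 (0.040), Ccne1 (0.053), Mcm2 (0.176), Mcm7 (0.056), Pcna (-0.013), Rrm1 (-3e-04) and Plk1 (0.054), and with the block added Ccnd2 (-0.014), Cdk4 (0.041), Ccne1 (0.052), Mcm2 (0.178), Mcm7 (0.051), Pcna (-0.012), Rrm1 (-0.0015) and Plk1 (0.039). With 5xFAD replicate 3 alone these were Ccnd3 (0.043), Cdk4 (0.047), Mcm2 (0.166), Ccnb2 (-0.0013) and Plk1 (0.315). Mcm2 was at 0.0010 in DESeq2 and 0.0057 in limma-voom. With 1 library left out the ranges that crossed 0 were Ccnd2 (-0.0042 to 0.16), Cdk4 (-0.088 to 0.0074), Ccne1 (-0.037 to 0.019), Mcm2 (-0.089 to 0.12), Mcm5 (-0.011 to 0.18), Mcm7 (-0.12 to 0.0016), Ccnb2 (-0.081 to 0.41) and Plk1 (-0.39 to 0.013). The low counts of the late genes limit the precision: Cdk1, Aurkb and Bub1 had 1 to 15 counts in each WT library, where a few reads move a fold change.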
